A study of Homo sapiens with 12 samples.

Results

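The comparison described here sets TE-1 cells that received an IFI6 overexpression vector against TE-1 cells that received a non-targeting hairpin vector. Its members were chosen by group and level. They are the 3 libraries of the overexpression group (named OE_IFI6 here) and the 3 libraries of the hairpin control group (sh_control), which make 6 of the 12 libraries of the series. They were compared over the genes and transcripts with a mean of at least 1 FPKM across the 12 libraries. FPKM is a fragment count divided by transcript length and by the mapped fragments of the library. This left 10925 of 19771 protein-coding genes. It also left 17030 of 83687 transcripts in the table of coding transcripts, and 6496 of 107659 transcripts in the table of long non-coding RNA (lncRNA) transcripts. TE-1 is a human oesophageal cancer cell line. All cells were grown in DMEM with 10% FBS, transfected with vectors and cultured for 48 h, and libraries were made from total RNA. The other 6 libraries are 3 that received the control of the overexpression vector (OE_control) and 3 that received a hairpin against IFI6 (sh_IFI6). The groups compared differ in the kind of vector as well as in IFI6, and the effects of these cannot be told apart in the 6 libraries, so values of the other 2 groups are given beside the genes, transcripts and isoform shares that passed the test, and beside others where they differ most. No label states whether libraries of a group were grown as separate cultures. The p-values below come from a model of all 12 libraries in 4 groups, and measure differences against the spread between libraries of a group, which may be technical.

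IFI6 encodes a small hydrophobic protein of mitochondrial and endoplasmic reticulum membranes. Its transcription is induced by type I interferons, and it is known for delaying apoptosis and for limiting the replication of some viruses. Most human genes give rise to several transcripts that differ in their promoter, their exons or their end, so a gene's summed RNA can stay level while its transcripts exchange places. When transcripts share most of their sequence, short reads seldom tell them apart, and the level of each is an estimate. Transcripts annotated as retained intron or processed transcript carry no open reading frame in the annotation and are held in the lncRNA table here, although most belong to coding genes (5698 of the 6496 tested).

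Summed FPKM over protein-coding genes was between 325877 and 357145 across the libraries. FPKM is already divided by the mapped fragments, so these sums do not measure library size. The spacing of low values gave 29.8 to 38.4 steps per kilobase at 1 FPKM, and the lowest and highest of these both lay among the 6 libraries compared. The sources used here give no read counts per library. Correlations of log2(FPKM + 1) over tested genes were 0.967 to 0.978 within the compared groups and 0.969 to 0.9750 between them. For tested coding transcripts the range was 0.781 to 0.791 inside a group and 0.778 to 0.791 across the 2 groups, so transcript values were far less repeatable than gene values. Of the epithelial markers, KRT8 (725 to 1137 FPKM) and KRT18 (422 to 543 FPKM) were high in the 6 libraries. KRT5, KRT14, KRT6A and EPCAM were listed at 0, and TP63, CDH1 and KRT19 stayed at or under 0.332 FPKM, while KRT17 was at 0.492 to 1.18 FPKM. Of 24 squamous epithelial markers, 4 passed the expression filter. Of 5 immune markers 1 reached 1 FPKM, with summed levels of 0.677 to 1.23 FPKM in OE_IFI6 and 1.002 to 1.15 FPKM in sh_control and CD3E listed at 0, and 0 of 3 endothelial markers did. Of 6 fibroblast markers 4 reached 1 FPKM, namely COL1A1, COL3A1, DCN and LUM, and PDGFRA was listed at 0. The fibroblast markers summed to 5.68 to 6.97 FPKM in OE_IFI6 and 6.29 to 8.31 FPKM in sh_control.

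IFI6 has 3 coding transcripts that differ by a short insertion at the end of an exon. The stretch of coding sequence around it is shown because most of the added IFI6 signal was assigned to the transcript without the insertion. Sequences are spliced coding strand from GENCODE release 29 models (GRCh38, minus strand, within chr1:27668506-27669274), and capitals mark the bases that IFI6-202 lacks.
IFI6-202: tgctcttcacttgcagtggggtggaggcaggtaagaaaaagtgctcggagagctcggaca
IFI6-203: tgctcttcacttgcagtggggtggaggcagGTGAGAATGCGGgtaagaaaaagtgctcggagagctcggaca
IFI6-201: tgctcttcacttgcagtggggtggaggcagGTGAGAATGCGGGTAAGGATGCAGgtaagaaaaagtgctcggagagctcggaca
The insertion is 12 bases in IFI6-203 and 24 bases in IFI6-201, both a whole number of codons, and the coding sequences are 393, 405 and 417 bases long.

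IFI6 (ENSG00000126709, chromosome 1, 27666064 to 27672198) was the gene with the smallest p in the comparison. It was at 309, 268 and 358 FPKM in the OE_IFI6 libraries and at 24.9, 24.1 and 21.2 FPKM in the sh_control libraries. The 2 groups lay far apart, and the OE_control libraries (27.3, 17.9 and 28.8 FPKM) were near the hairpin control. The sh_IFI6 libraries were lower, at 15.1, 13.9 and 14.7 FPKM. This lower level did not pass, since 0 of 10925 tested genes had a limma adjusted p under 0.05 between sh_IFI6 and sh_control. Between OE_IFI6 and sh_control, IFI6 rose 13.3-fold, a log2 difference of 3.67 (SE 0.167, 95% interval 3.31 to 4.04, limma adjusted p = 8.1e-07). The two-sided exact permutation p for 3 against 3 libraries was 0.1, the smallest that this design can give. In bulk RNA, more transfected cells and more IFI6 RNA per cell cannot be told apart.

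Among the transcripts, IFI6-202 (ENST00000361157) carried the rise. Its level was 303, 258 and 351 FPKM in OE_IFI6 against 23.7, 19.4 and 20.1 FPKM in sh_control, 14.4-fold higher (log2 difference 3.78, SE 0.222, limma adjusted p = 0.00026). OE_control was at 24.8, 13.5 and 25.1 FPKM and sh_IFI6 at 14.3, 12.4 and 13.4 FPKM. It made up 96.0% to 98.3% of the gene's FPKM in OE_IFI6, 80.3% to 95.3% in sh_control, 75.2% to 90.7% in OE_control and 89.6% to 94.4% in sh_IFI6. Its level relative to the other coding transcripts of the gene did not pass between OE_IFI6 and sh_control (log2 difference 2.27, SE 0.549, limma adjusted p = 0.52). IFI6-203 was at 4.53, 3.04 and 5.66 FPKM in OE_IFI6 and at 1.10, 1.41 and 1.10 FPKM in sh_control. These libraries did not overlap, but the limma adjusted p for the log2 difference of 1.27 (SE 0.249) was 0.31, over the threshold. IFI6-201 varied within groups, from 0.834 to 7.66 FPKM in OE_IFI6 and from 0 to 3.34 FPKM in sh_control.

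**Figure D1:**
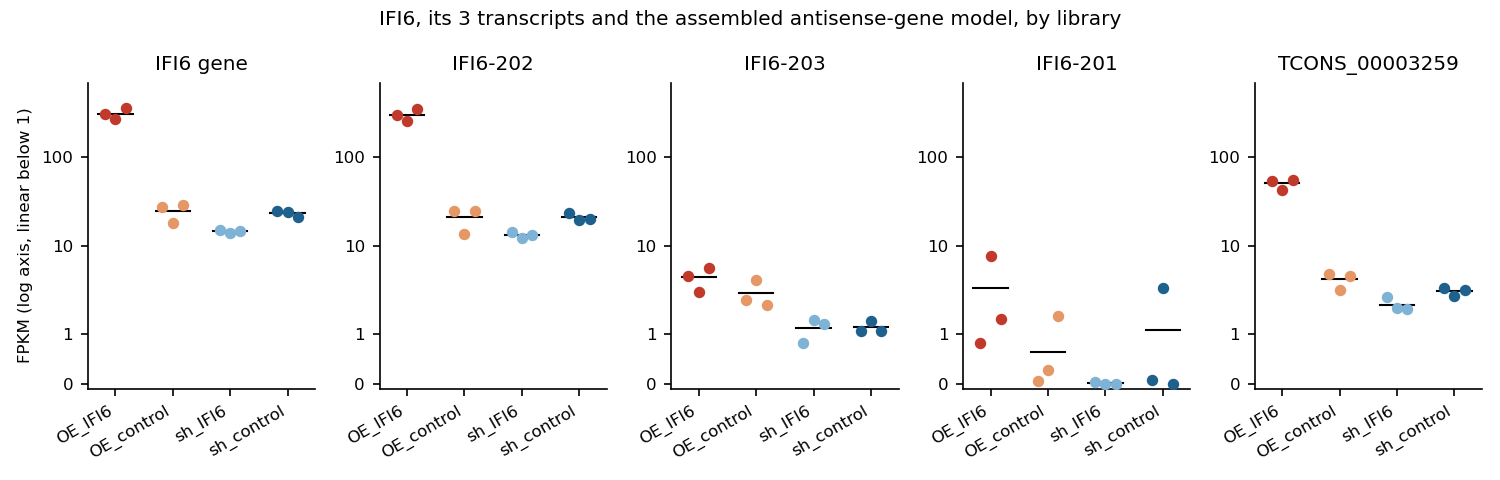
FPKM (log axis, linear below 1) of the IFI6 gene, its 3 coding transcripts and the assembled model TCONS_00003259 of the antisense gene in each library of the 4 groups; points are libraries and bars are group means. The OE_IFI6 libraries stand above all others for the gene (268 to 358 FPKM), IFI6-202 and the antisense model (42.8 to 56.0 FPKM).

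An antisense gene, AL445490.1 (ENSG00000225886, chromosome 1, 27666184 to 27703063), lies on the opposite strand and, by the deposited bounds, covers most of the span of IFI6 (27666064 to 27672198). In the deposited table of all annotated genes it was at 55.4, 43.6 and 56.6 FPKM in OE_IFI6 and at 3.33, 3.22 and 3.18 FPKM in sh_control, a log2 difference of 3.63 (limma adjusted p = 5.1e-06). Nearly all of this came from an assembled model, TCONS_00003259 (chromosome 1, 27666184 to 27672220). Its level was between 11.4% and 17.8% of that of IFI6 in each of the 12 libraries. The sources used here do not state whether reads were counted by strand, so reads of IFI6 and of this antisense gene cannot be told apart.

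At gene level, only IFI6 and RBMXL1 passed the threshold used throughout, a Benjamini-Hochberg adjusted limma p under 0.05, and both rose. They are 2 of 10925 tested genes (0.0183%), while 503 genes had an unadjusted p under 0.05. In the same fit, 837 genes (7.66%) passed between OE_IFI6 and OE_control and 822 genes (7.52%) passed between OE_control and sh_control. These comparisons share libraries with the one described, and the 3 OE_control libraries stood apart on the first principal component (-30.6, -22.2 and -22.3, against 5.9 to 11.3 for the other 9). The median log2 difference between OE_IFI6 and sh_control over all tested genes was -0.04. The median size of the difference, without its sign, was 0.106. A gene's 95% interval, not adjusted for the number of genes, had a median half-width of 0.344, so changes below that size were mostly not detectable. The threshold on the adjusted p is stricter, and the smallest gene difference that passed was 1.49. Libraries of the 2 groups did not overlap for 9.54% of genes. Only 54 genes differed by more than 1 on the log2 scale, 24 higher and 30 lower.

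RBMXL1 (ENSG00000213516, chromosome 1, 88979456 to 88992960) is a retrocopy of RBMX, an X-linked gene for a nuclear RNA-binding protein that takes part in splicing. It was at 6.61, 9.39 and 7.01 FPKM in OE_IFI6 and at 1.96, 2.12 and 2.11 FPKM in sh_control. The lowest OE_IFI6 library was above the highest library of every other group, since OE_control was at 1.76, 2.32 and 1.84 FPKM and sh_IFI6 at 1.64, 1.83 and 1.91 FPKM. The rise was 3.72-fold, a log2 difference of 1.49 (SE 0.133, 95% interval 1.20 to 1.78; limma adjusted p = 0.00073). Against OE_control the log2 difference was 1.54 (limma adjusted p = 6.1e-05). The coding sequence of RBMXL1 is identical to that of RBMX at 1142 of 1176 aligned bases (97.1%), so how reads were divided between these near-copies is uncertain. RBMX was at 33.5, 48.9 and 41.0 FPKM in OE_IFI6 and 43.4, 46.0 and 40.9 FPKM in sh_control (log2 difference -0.09, limma adjusted p = 1.0). RBMXL1 also shares 13498 bases of its span with KYAT3 on the same strand, and KYAT3 differed by 0.07 on the log2 scale.

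**Figure D2:**
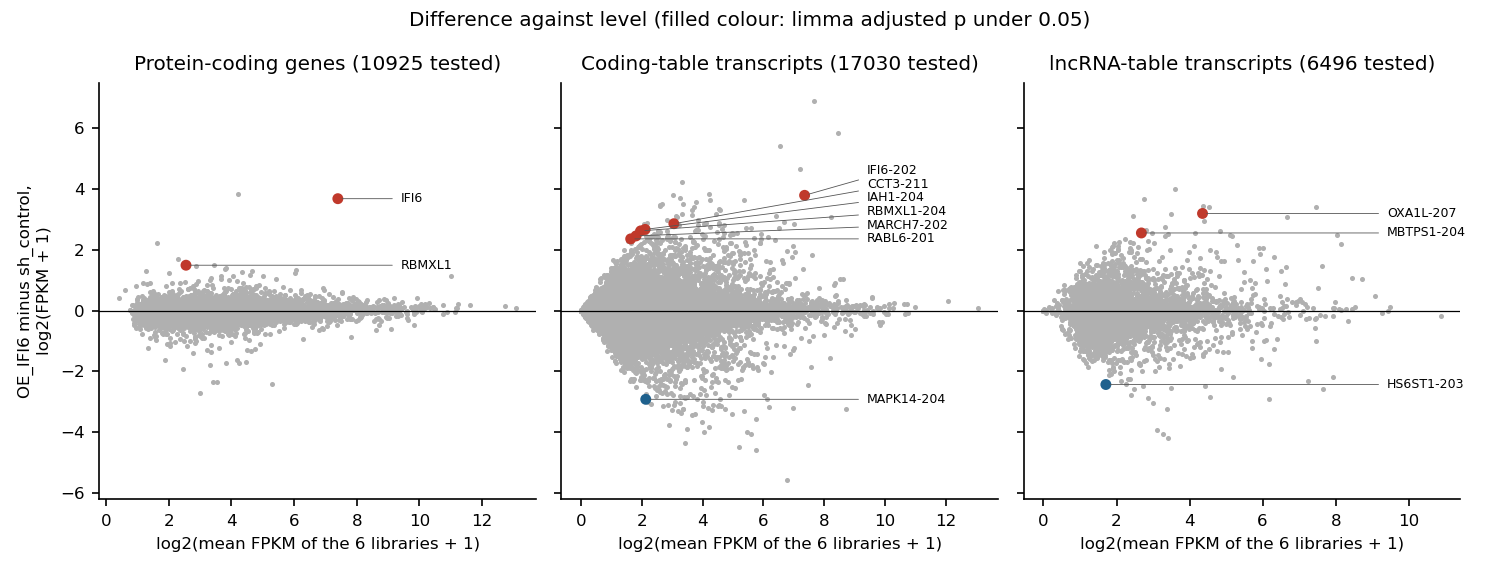
Log2 difference between OE_IFI6 and sh_control against log2 mean level of the 6 libraries, for genes, coding-table transcripts and lncRNA-table transcripts; coloured points have a limma adjusted p under 0.05. Of the coloured points, 2 are genes, 7 coding transcripts and 3 lncRNA-table transcripts, and many uncoloured transcripts differ as much or more.

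The genes next in order of p did not pass. FAM219A was at 0.981, 0.523 and 1.07 FPKM in OE_IFI6 and 2.72, 2.17 and 2.50 FPKM in sh_control (log2 difference -0.91, limma adjusted p = 0.12). C5orf24 was at 1.54, 2.38 and 2.61 FPKM in OE_IFI6 and 0.751, 0.784 and 0.658 FPKM in sh_control (log2 difference 0.86, limma adjusted p = 0.16). HS6ST1, a heparan sulfate 6-O-sulfotransferase gene, had a log2 difference of -0.69 and ACTG1, the gene of cytoplasmic gamma-actin, one of -0.64 (limma adjusted p = 0.36 for both). The actin-binding profilin gene PFN1 had a log2 difference of 0.57, the calcium-binding reticulum protein gene RCN1 one of 0.53, SMIM29 one of -0.74 and PHF12 one of -0.52 (limma adjusted p between 0.43 and 0.57). TRIM32, chosen after its values were seen, was at 10.7, 9.08 and 9.28 FPKM in OE_IFI6 and 1.32, 4.32 and 3.61 FPKM in sh_control (log2 difference 1.47, limma adjusted p = 0.57). Groups did not overlap for these 9 genes, which were chosen by small p or after their values were seen, beside 9.54% of all tested genes. Each of the 9 missed the threshold. FAM219A was between 2.45 and 4.44 FPKM and C5orf24 between 0.491 and 1.08 FPKM in OE_control and sh_IFI6, so OE_IFI6 stood apart from the other 9 libraries for both. PFN1 averaged 218 FPKM in OE_IFI6, 223 in OE_control and 213 in sh_IFI6 against 146 in sh_control, so sh_control alone was low. TRIM32 was at 2.62 to 3.52 FPKM in OE_control and 4.10 to 9.43 FPKM in sh_IFI6.

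In 28 gene lists, IFI6 was the only member that passed. Of 25 tested interferon-stimulated genes (IFI6 listed apart), 0 passed, 12 had values above 0 and 13 below, and the median log2 difference was -0.01 beside -0.04 for all genes. IFIT2 and IRF9 had the smallest p among them, with log2 differences of 0.43 and -0.39 (limma unadjusted p = 0.028 and 0.029). ISG15, a ubiquitin-like modifier, was at 12.3, 15.3 and 16.6 FPKM in OE_IFI6 and 16.7, 15.2 and 15.9 FPKM in sh_control. IFIT1, a binder of foreign RNA, was at 3.55, 4.49 and 2.90 FPKM against 3.63, 3.24 and 3.38 FPKM. Both sets overlapped. OE_control was higher for both, at 36.1 to 47.7 FPKM for ISG15 and 5.07 to 6.05 FPKM for IFIT1, and OE_IFI6 differed from it by -1.42 and -0.52 on the log2 scale (limma adjusted p = 9.9e-05 and 0.033). The median of the list was -0.19 against OE_control and 0.29 between OE_control and sh_control. IFI27, of the same family as IFI6, and the antiviral GTPase gene MX1 lay under the expression filter (at most 0.670 and 0.0473 FPKM in the 6 libraries). IFI27L1, the other tested family member, had a log2 difference of 0.27 (SE 0.298).

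Stress and chaperone genes had small median differences from the hairpin control and larger ones from OE_control. In the heat shock list, 0 of 23 members passed, and the median log2 difference was -0.05. HSPA1A, an inducible HSP70 gene with the near-identical copy HSPA1B, was at 5.69, 8.84 and 8.73 FPKM in OE_IFI6 and 9.58, 12.3 and 14.4 FPKM in sh_control (log2 difference -0.59, limma unadjusted p = 0.044). OE_control was at 83.2, 138.8 and 181.2 FPKM and sh_IFI6 at 13.2, 11.9 and 10.1 FPKM, so HSPA1A was lower in OE_IFI6 than in OE_control by a log2 difference of -3.90 (limma adjusted p = 9.6e-06). DNAJB1, its co-chaperone, differed by less than 0.01 on the log2 scale with an interval of -0.22 to 0.21, but from OE_control by -3.07 (limma adjusted p = 1.3e-08). The heat shock median was -0.63 against OE_control and 0.59 between OE_control and sh_control. Medians of -0.07 for ATF4 targets (0 of 29 passed) and -0.04 for the unfolded protein response (0 of 28 passed) were found. Against OE_control these medians were -0.43 and -0.32. The stress transcription factor genes ATF4 and DDIT3 had log2 differences of 0.04 and -0.19. The reticulum chaperone gene HSPA5 had a log2 difference of -0.07 and the haem oxygenase gene HMOX1 one of -0.24. The cell cycle inhibitor CDKN1A had a log2 difference of -0.01 and the proliferation marker MKI67 one of -0.14. For the small RNA effector AGO2 it was -0.15, and for the microRNA-processing enzyme DICER1 it was -0.04. None of these 8 genes passed against sh_control.

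Other lists also had no member that passed. For cholesterol and fatty acid synthesis the median log2 difference was -0.17, with 27 of 33 members below 0. DHCR7, the last enzyme of cholesterol synthesis, was at 15.8, 20.8 and 20.9 FPKM in OE_IFI6 and 32.0, 26.4 and 36.5 FPKM in sh_control (log2 difference -0.69, limma adjusted p = 0.64). Replication-dependent histone genes had a median of 0.12 and 26 of 32 members above 0, with HIST1H4B at a log2 difference of 0.34 (limma adjusted p = 1.0). Of 9 tested mitochondrially encoded genes, 8 were below 0 with a list median of -0.47. The cytochrome oxidase subunit gene MT-CO1, chosen after its values were seen, was at 754 ± 20.1 FPKM (SD, n = 3) in OE_IFI6 and 1051 ± 150 FPKM in sh_control (limma adjusted p = 0.94). MT-CYB had a log2 difference of -0.62 and MT-CO2 one of -0.47. The remaining member, MT-ND4L, had a log2 difference of 2.23 (SE 0.695, limma adjusted p = 0.94), the largest of the list. The list median was 0.00 against OE_control and -0.36 between OE_control and sh_control. For p53 targets the median was -0.06. Among them PHLDA3, which inhibits AKT signalling, was at 15.8, 15.2 and 18.7 FPKM in OE_IFI6 and 5.88, 7.40 and 7.55 FPKM in sh_control (log2 difference 1.14, limma adjusted p = 0.64). OE_control was as high as OE_IFI6, at 17.4, 17.7 and 19.2 FPKM, and differed from sh_control by 1.27 (limma adjusted p = 0.014). In sh_IFI6 PHLDA3 was at 7.66, 19.5 and 18.3 FPKM. Of 45 splicing regulators, 35 had values below 0 (median -0.09). PTBP1, a repressor of alternative exons, had a log2 difference of -0.56 and CLK1, a kinase of splicing factors, one of -0.47 (limma adjusted p = 0.72 and 0.94).

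In the remaining lists 0 members passed as well. The nucleolar ribosome biogenesis list had a median log2 difference of 0.03 over 32 members. Its member NIP7, a factor of large ribosomal subunit assembly, was at 12.98, 18.1 and 16.5 FPKM in OE_IFI6 and 8.46, 9.63 and 9.01 FPKM in sh_control (log2 difference 0.74, limma adjusted p = 0.77). The nuclear-encoded respiratory chain list had a median of 0.04 over 74 members. SDHD, a membrane anchor of succinate dehydrogenase, was at 28.1, 8.13 and 5.36 FPKM in OE_IFI6 and 69.04, 53.9 and 66.6 FPKM in sh_control (log2 difference -2.42, SE 0.838, limma adjusted p = 1.0). Its groups did not overlap, but the OE_IFI6 libraries differed widely among themselves. In the mitosis list (median -0.02, 36 members) the spindle gene NUSAP1 had a log2 difference of -0.74 and the CDK-binding gene CKS1B one of 0.58. In the list of G1/S genes (median 0.01, 38 members) the thymidylate synthase gene TYMS had a log2 difference of 0.44. Immediate early genes were below 0 for 25 of 31 members (median -0.12), with KLF6 at -0.38 and IER3 at -0.27. Small RNA machinery had 10 of 12 members below 0 (median -0.08), with AGO1 at 0.43. RNA sensors had 9 of 11 members below 0 (median -0.06), with the adaptor gene MAVS at -0.18. The median was -0.03 for MHC class I presentation, where the peptide-loading gene TAPBP had a log2 difference of -0.62. It was 0.02 for 64 cytosolic ribosomal proteins.

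**Figure D3:**
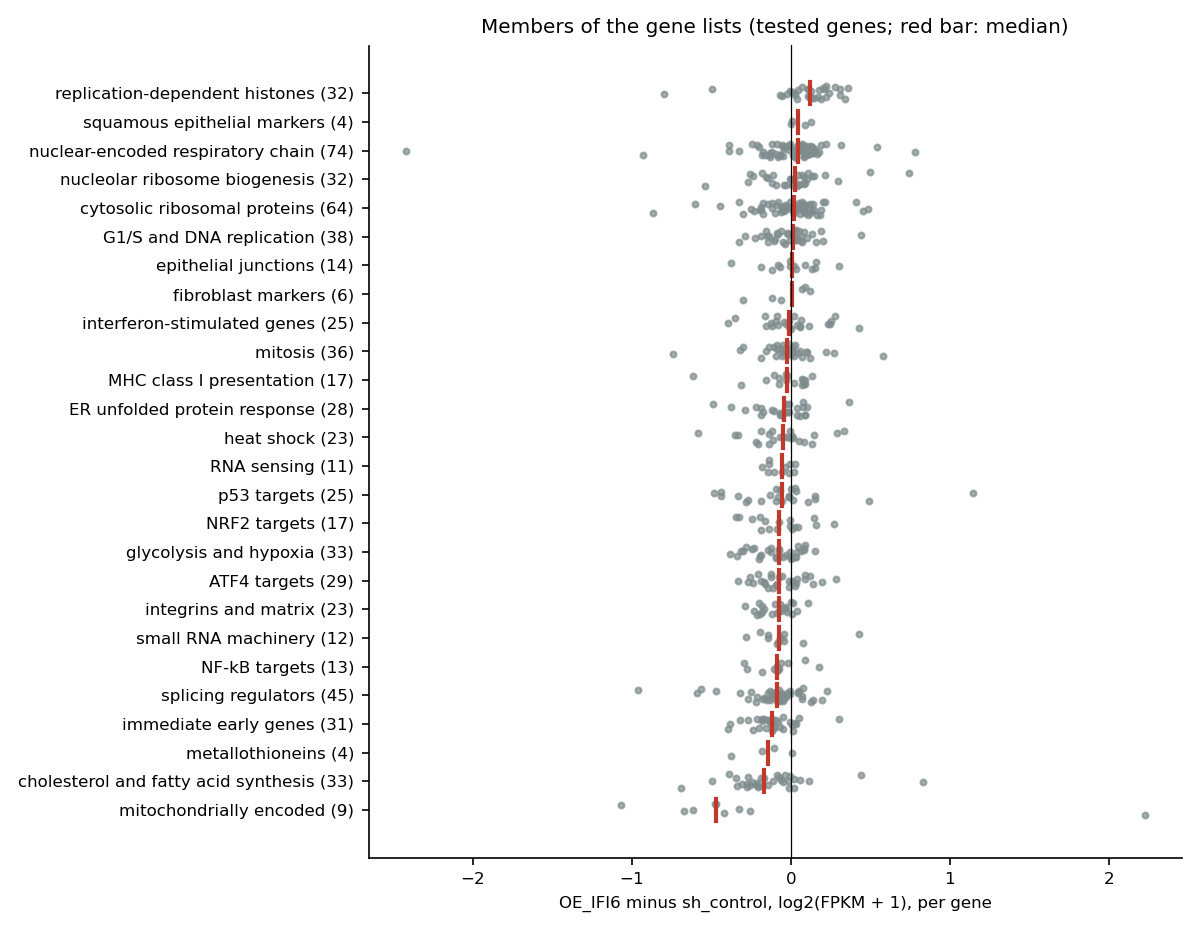
Log2 difference between OE_IFI6 and sh_control for each tested member (grey points) of the gene lists with at least 4 tested members, with the list median as a red bar. Medians lie between -0.47 (mitochondrially encoded genes) and 0.12 (histones), and single members such as SDHD (-2.42) lie far from their list.

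At transcript level, 7 of 17030 coding-table transcripts passed (0.0411%), 6 higher and 1 lower in OE_IFI6. There were 790 with an unadjusted p under 0.05. The median 95% half-width was 0.812 on the log2 scale, compared with 0.344 for genes, and 13.8% of the transcripts were listed at 0 in at least 1 of the 6 libraries. As many as 1754 transcripts had a log2 difference beyond 1, yet the smallest difference that passed was 2.35. Libraries of the 2 groups did not overlap for 9.71% of the tested coding transcripts. Besides IFI6-202, the transcripts that passed belong to RBMXL1, IAH1, MARCH7, RABL6, CCT3 and MAPK14. Of these, only RBMXL1 passed at gene level. A further test took the level of each transcript relative to the other coding transcripts of its gene, its isoform share, for 11844 transcripts of 4179 genes. Here 7 passed (0.0591%), 4 higher and 3 lower, and 593 had an unadjusted p under 0.05. A total of 4 of these 7 had also passed by their own level.

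MAPK14 encodes p38alpha, a stress-activated protein kinase. Its transcripts use 1 of 2 alternative exons of 80 coding bases, which are shown because the transcript that fell differs from MAPK14-202 there. Both are on the plus strand of GRCh38 in GENCODE release 29, at chr6:36095987-36096066 for MAPK14-204 and chr6:36100188-36100267 for MAPK14-202, and capitals mark the whole alternative exon.
MAPK14-204: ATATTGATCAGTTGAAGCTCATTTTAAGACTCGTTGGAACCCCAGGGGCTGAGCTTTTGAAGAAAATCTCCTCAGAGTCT
MAPK14-202: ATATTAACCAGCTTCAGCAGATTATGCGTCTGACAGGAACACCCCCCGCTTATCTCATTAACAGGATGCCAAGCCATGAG
MAPK14-201 contains the same 80 bases as MAPK14-204. MAPK14-204 has 852 coding bases, all of them within the 1083 of MAPK14-201.

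MAPK14-204 (ENST00000468133, chromosome 6, 36027782 to 36108670) was listed at 0, 0 and 0.0626 FPKM in OE_IFI6 and at 6.58, 6.57 and 6.95 FPKM in sh_control. It fell by 2.92 on the log2(FPKM + 1) scale (SE 0.188, limma adjusted p = 0.00032). It was listed at 0 in the 3 OE_control and the 3 sh_IFI6 libraries as well, so sh_control alone differed from the rest. Its share of the gene's FPKM in sh_control was 36.2% to 41.0%, and its isoform share also fell (log2 difference -4.21, limma adjusted p = 0.025). MAPK14-201 was at 8.42, 20.7 and 5.23 FPKM in OE_IFI6 and at 1.004, 0.570 and 1.26 FPKM in sh_control, without overlap, but did not pass (log2 difference 2.49, SE 0.735, limma adjusted p = 0.92). It ranged from 0.829 to 9.26 FPKM in OE_control and from 2.58 to 12.4 FPKM in sh_IFI6. The gene was at 20.6 ± 6.72 FPKM (SD, n = 3) in OE_IFI6 and 17.4 ± 1.23 FPKM in sh_control (log2 difference 0.18, interval -0.31 to 0.67). Gene values overlapped between the groups, and those of MAPK14-204 did not.

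RBMXL1-204 (ENST00000652648, chromosome 1, 88979456 to 88992629) was at 3.41, 8.001 and 5.74 FPKM in OE_IFI6. In sh_control it was at 0.0463, 0.0618 and 0.0465 FPKM, and in the other 6 libraries at no more than 0.0624 FPKM. It rose by 2.62 on the log2 scale (SE 0.269, limma adjusted p = 0.0090), and by 2.61 against OE_control (limma adjusted p = 0.0017). It made up 51.6% to 85.2% of the gene's FPKM in OE_IFI6 and 2.20% to 2.92% in sh_control. RBMXL1-202 was at 1.17, 0.346 and 0.226 FPKM in OE_IFI6 and 1.44, 1.57 and 1.74 FPKM in sh_control. OE_control was at 1.20 to 1.57 FPKM and sh_IFI6 at 1.13 to 1.54 FPKM. Its isoform share fell by 3.18 on the log2 scale (SE 0.377, limma adjusted p = 0.031), a call lost in 2 of 6 fits that left out 1 library. RBMXL1-201 was at 1.88, 0.813 and 0.919 FPKM in OE_IFI6 and between 0.240 and 0.344 FPKM in sh_control. The annotated transcripts RBMXL1-201 and RBMXL1-202 have the same coding sequence of 1173 bases. RBMXL1-204 has no model in GENCODE release 29.

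IAH1 encodes an esterase named after isoamyl acetate hydrolysis. The start of the coding sequence is shown for 2 transcripts because they begin in different exons. Capitals mark the bases that only that transcript has, on the plus strand of GRCh38 (GENCODE release 29, spliced, within chr2:9475212-9476016 and chr2:9474567-9476016).
IAH1-204: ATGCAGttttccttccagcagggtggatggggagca
IAH1-215: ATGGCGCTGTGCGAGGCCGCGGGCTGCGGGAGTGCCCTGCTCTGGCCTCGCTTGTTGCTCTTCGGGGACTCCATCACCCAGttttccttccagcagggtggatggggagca
IAH1-204 has 480 coding bases in a model marked as incomplete at its 3′ end, and IAH1-215 has 747.

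IAH1-204 (ENST00000481688, chromosome 2, 9474858 to 9488314) was at 5.14, 5.57 and 8.61 FPKM in OE_IFI6 and at 0.102, 0 and 0.378 FPKM in sh_control. In OE_control and sh_IFI6 it did not exceed 0.256 FPKM, so it was high in OE_IFI6 alone. It rose by 2.66 on the log2(FPKM + 1) scale (SE 0.241, limma adjusted p = 0.0036), and by 2.60 against OE_control (limma adjusted p = 0.00084). It accounted for 32.5% to 51.6% of the gene's FPKM in OE_IFI6 and 0 to 2.93% in sh_control. IAH1-215 was at 4.28, 4.12 and 3.10 FPKM in OE_IFI6 and 4.01, 6.50 and 6.38 FPKM in sh_control, with overlap. It was at 1.31 to 2.30 FPKM in OE_control and 5.88 to 7.07 FPKM in sh_IFI6. The isoform share of IAH1-204 rose (log2 difference 3.08, limma adjusted p = 0.035) and that of IAH1-215 fell (log2 difference -2.60, limma adjusted p = 0.035). The latter became -0.96 (limma adjusted p = 0.99) when the rest of the gene was summed over all annotated transcripts. Leaving out 1 library lost the share call of IAH1-204 in 3 of 6 fits and that of IAH1-215 in 5. IAH1-201, held in neither transcript table, was at 11.1, 0.550 and 0 FPKM in sh_control. At gene level IAH1 was at 15.9 ± 0.781 FPKM (SD, n = 3) in OE_IFI6 and 14.4 ± 3.19 FPKM in sh_control.

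MARCH7 encodes a membrane-associated RING-CH ubiquitin ligase. MARCH7-202 (ENST00000409175, chromosome 2, 159712506 to 159771027) was at 3.33, 3.797 and 7.72 FPKM in OE_IFI6 and 0.0975, 0.00409 and 0.00725 FPKM in sh_control. It did not exceed 0.314 FPKM in OE_control or sh_IFI6, so OE_IFI6 again stood alone. It rose by 2.45 on the log2 scale (SE 0.294, limma adjusted p = 0.025), and its isoform share rose by 4.73 (limma adjusted p = 0.035). The share call was lost in 5 of 6 fits that left out 1 library, and with the rest of the gene summed over all annotated transcripts (3.52, limma adjusted p = 0.15). MARCH7-201 was at 0, 1.10 and 0.174 FPKM in OE_IFI6 and 7.92, 9.05 and 3.69 FPKM in sh_control. Its log2 difference was -2.47 (SE 0.572, limma adjusted p = 0.53), and it ranged from 1.67 to 7.51 FPKM in the other 6 libraries. Both transcripts have the same coding sequence of 2115 bases in GENCODE release 29, where their models differ outside it. As deposited, MARCH7-202 ends at the same base as MARCH7-201 (159771027), while its GENCODE model ends at 159767369. The gene was at 8.87 ± 0.605 FPKM (SD, n = 3) in OE_IFI6 and 8.73 ± 2.46 FPKM in sh_control. MARCH7-202 missed the threshold without sh_control replicate 2 (limma adjusted p = 0.065) and without sh_control replicate 3 (limma adjusted p = 0.055).

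RABL6 encodes a RAB-like GTPase. Its transcripts RABL6-201 and RABL6-203 differ by 3 coding bases at a splice junction, shown because it is the only difference between their coding sequences. Capitals mark the 3 bases, on the plus strand of GRCh38 (GENCODE release 29, spliced, within chr9:136831832-136832294).
RABL6-201: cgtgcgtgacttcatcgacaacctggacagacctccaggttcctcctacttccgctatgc
RABL6-203: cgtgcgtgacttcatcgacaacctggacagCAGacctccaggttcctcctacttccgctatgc

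RABL6-201 (ENST00000311502, chromosome 9, 136807948 to 136841187) was at 3.70, 3.39 and 5.46 FPKM in OE_IFI6 and listed at 0 in the 3 sh_control libraries. It was at 3.40, 4.18 and 3.30 FPKM in OE_control and at 0.00915, 0 and 0 FPKM in sh_IFI6. Its level thus followed the kind of vector, present in the 6 overexpression-vector libraries and at or near 0 in the 6 hairpin libraries. It rose by 2.35 on the log2(FPKM + 1) scale (SE 0.195, limma adjusted p = 0.0021), a value that depends on the pseudocount. Its difference from OE_control was 0.15 (limma adjusted p = 0.81). Its isoform share rose by 2.50 (limma adjusted p = 0.025), although it held only 9.71% to 9.83% of the gene's FPKM in OE_IFI6. RABL6-203 alternated between libraries, at 0, 5.32 and 0 FPKM in OE_IFI6 and 0.165, 0 and 3.49 FPKM in sh_control. The main transcript RABL6-204 was at 22.7, 20.6 and 32.2 FPKM against 26.0, 29.6 and 28.4 FPKM.

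CCT3 encodes the gamma subunit of the chaperonin TRiC, which folds actin and tubulin. Its transcripts CCT3-201 and CCT3-204 differ by exons of 114 coding bases in all. These are shown because the values of CCT3-204, which lacks them, lay far apart between the groups, although CCT3-204 did not pass. Capitals mark the bases missing from CCT3-204, on the minus strand of GRCh38 (GENCODE release 29, spliced, within chr1:156333614-156335856).
CCT3-204: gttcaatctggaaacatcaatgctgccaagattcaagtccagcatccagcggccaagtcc
CCT3-201: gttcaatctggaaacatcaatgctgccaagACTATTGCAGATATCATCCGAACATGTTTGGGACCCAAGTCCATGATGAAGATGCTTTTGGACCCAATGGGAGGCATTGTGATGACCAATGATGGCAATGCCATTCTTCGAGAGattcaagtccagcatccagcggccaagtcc

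CCT3-211 (ENST00000472765, chromosome 1, 156309165 to 156338257) was at 9.90, 14.7 and 15.96 FPKM in OE_IFI6 and 0.437, 0.956 and 1.75 FPKM in sh_control. It rose 12.9-fold, a log2 difference of 2.85 (SE 0.314, limma adjusted p = 0.014). OE_control (15.5, 7.46 and 9.32 FPKM) and sh_IFI6 (15.03, 10.6 and 10.8 FPKM) overlapped OE_IFI6, and sh_control alone lay below all of them. The abundant transcript CCT3-204 was at 333, 385 and 457 FPKM in OE_IFI6 and 0, 0 and 36.1 FPKM in sh_control. It was between 409 and 464 FPKM in the other 6 libraries. Its log2 difference of 6.87 was the largest shown in the plot of difference against level, but its spread was large (SE 1.12, limma adjusted p = 0.14). Without sh_control replicate 3 it passed, at 8.60 (limma adjusted p = 9.7e-09).

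The most abundant CCT3 model was not the same one in the 3 sh_control libraries. CCT3-201 was at 394, 64.9 and 22.8 FPKM in sh_control. CCT3-206, annotated as subject to nonsense-mediated decay and held in neither transcript table, was at 0.0997, 296 and 292 FPKM in the same libraries and at no more than 0.0329 FPKM in OE_IFI6. The CCT3 gene was at 434, 551 and 607 FPKM in OE_IFI6 and 402, 379 and 424 FPKM in sh_control (log2 difference 0.39, limma adjusted p = 0.94). It was at 563 to 643 FPKM in OE_control and 552 to 607 FPKM in sh_IFI6. CCT3-211 missed the threshold without sh_control replicate 2 (limma adjusted p = 0.054).

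**Figure D4:**
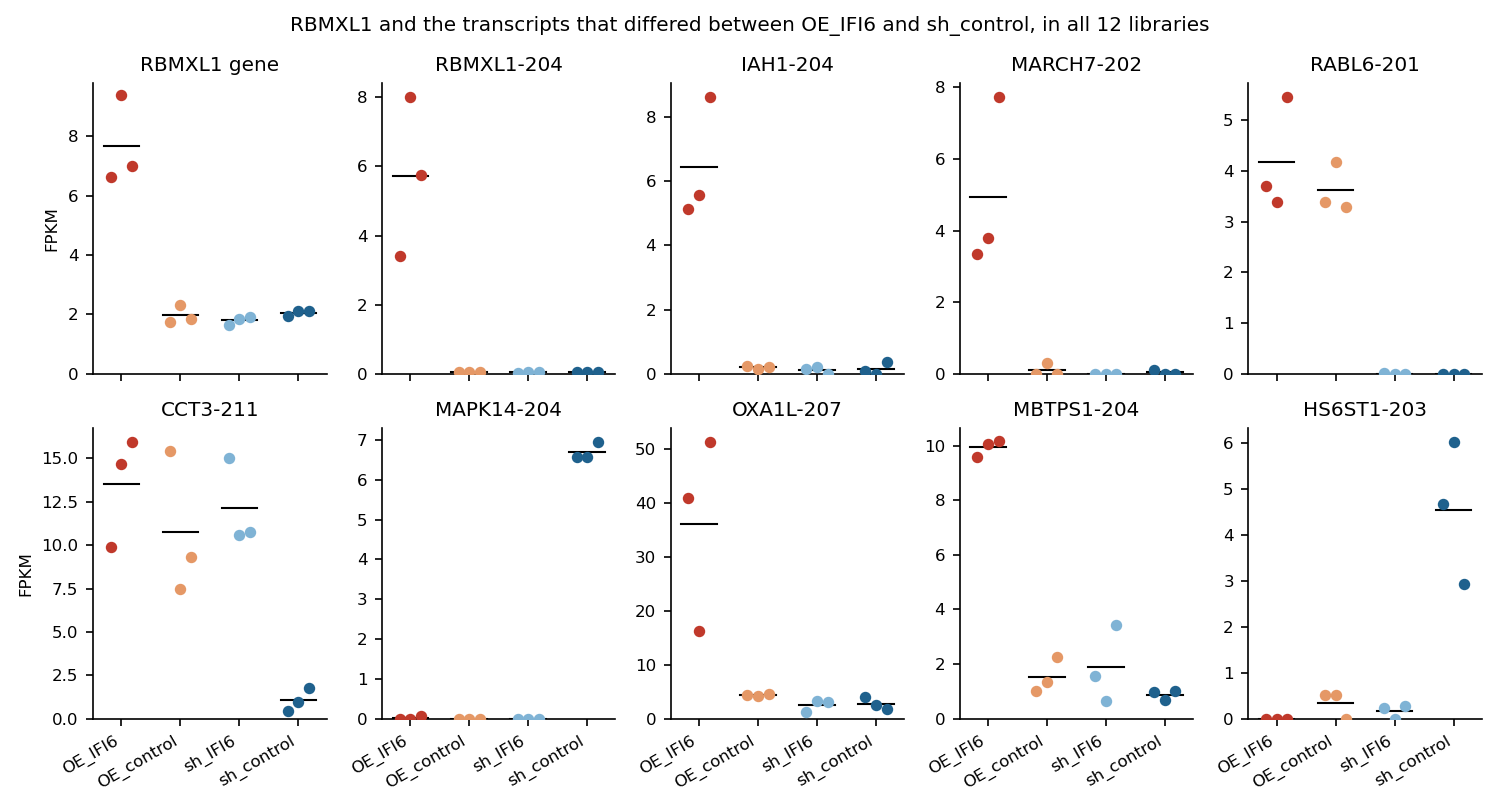
FPKM of the RBMXL1 gene and of 9 transcripts that passed (all except IFI6-202) in each library of the 4 groups; points are libraries, bars are group means, and each axis starts at 0. RBMXL1, RBMXL1-204, IAH1-204, MARCH7-202, OXA1L-207 and MBTPS1-204 are high in OE_IFI6 alone, RABL6-201 is present in both overexpression-vector groups, and MAPK14-204, CCT3-211 and HS6ST1-203 set sh_control apart.

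PRKACB encodes a catalytic subunit of protein kinase A, the kinase activated by cyclic AMP. PRKACB-204 and PRKACB-206 start in different first exons, and their first coding exons are shown because these tell apart the 2 transcripts whose values differed most within the gene. Capitals mark the bases that only that transcript has, on the plus strand of GRCh38 (GENCODE release 29, spliced, within chr1:84144362-84179206 and chr1:84078326-84179206).
PRKACB-204: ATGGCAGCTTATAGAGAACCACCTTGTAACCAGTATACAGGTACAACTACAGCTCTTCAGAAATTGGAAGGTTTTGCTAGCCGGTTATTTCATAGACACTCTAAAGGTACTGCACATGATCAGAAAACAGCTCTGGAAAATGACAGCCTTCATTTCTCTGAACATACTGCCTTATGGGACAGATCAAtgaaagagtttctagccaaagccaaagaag
PRKACB-206: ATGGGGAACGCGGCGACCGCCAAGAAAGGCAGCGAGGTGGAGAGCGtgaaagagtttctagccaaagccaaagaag
The transcripts have 187 and 46 coding bases of their own and share 1010.

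PRKACB-204 (ENST00000370685, chromosome 1, 84144271 to 84238498) was at 11.6, 13.3 and 8.56 FPKM in OE_IFI6 and 0.0600, 1.63 and 1.72 FPKM in sh_control. PRKACB-206 was at 1.23, 3.39 and 1.67 FPKM in OE_IFI6 and 10.6, 11.7 and 12.1 FPKM in sh_control. The groups did not overlap for either. The isoform share of PRKACB-204 rose by 4.14 on the log2 scale (SE 0.530, limma adjusted p = 0.035). This call was lost in 8 of 19 other settings, among them the fits without OE_IFI6 replicate 1 (limma adjusted p = 0.12), sh_control replicate 2 (0.074) and sh_control replicate 3 (0.051). That of PRKACB-206 had a value of -4.07 and did not pass (limma adjusted p = 0.082), and neither transcript passed by its own level (limma adjusted p = 0.12 for both). PRKACB-204 took 69.0% to 80.7% of the gene's FPKM in OE_IFI6 and 0.410% to 12.1% in sh_control. It took 14.3% to 35.7% in OE_control and 60.4% to 79.2% in sh_IFI6, so the share was higher in OE_IFI6 and sh_IFI6 than in the control groups, without overlap. The isoform share of PRKACB-204 between OE_IFI6 and OE_control had a log2 difference of 2.80 (limma adjusted p = 0.14), and between sh_IFI6 and sh_control one of 3.90 (limma adjusted p = 0.14). The gene had a log2 difference of 0.07 (interval -0.29 to 0.44).

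**Figure D5:**
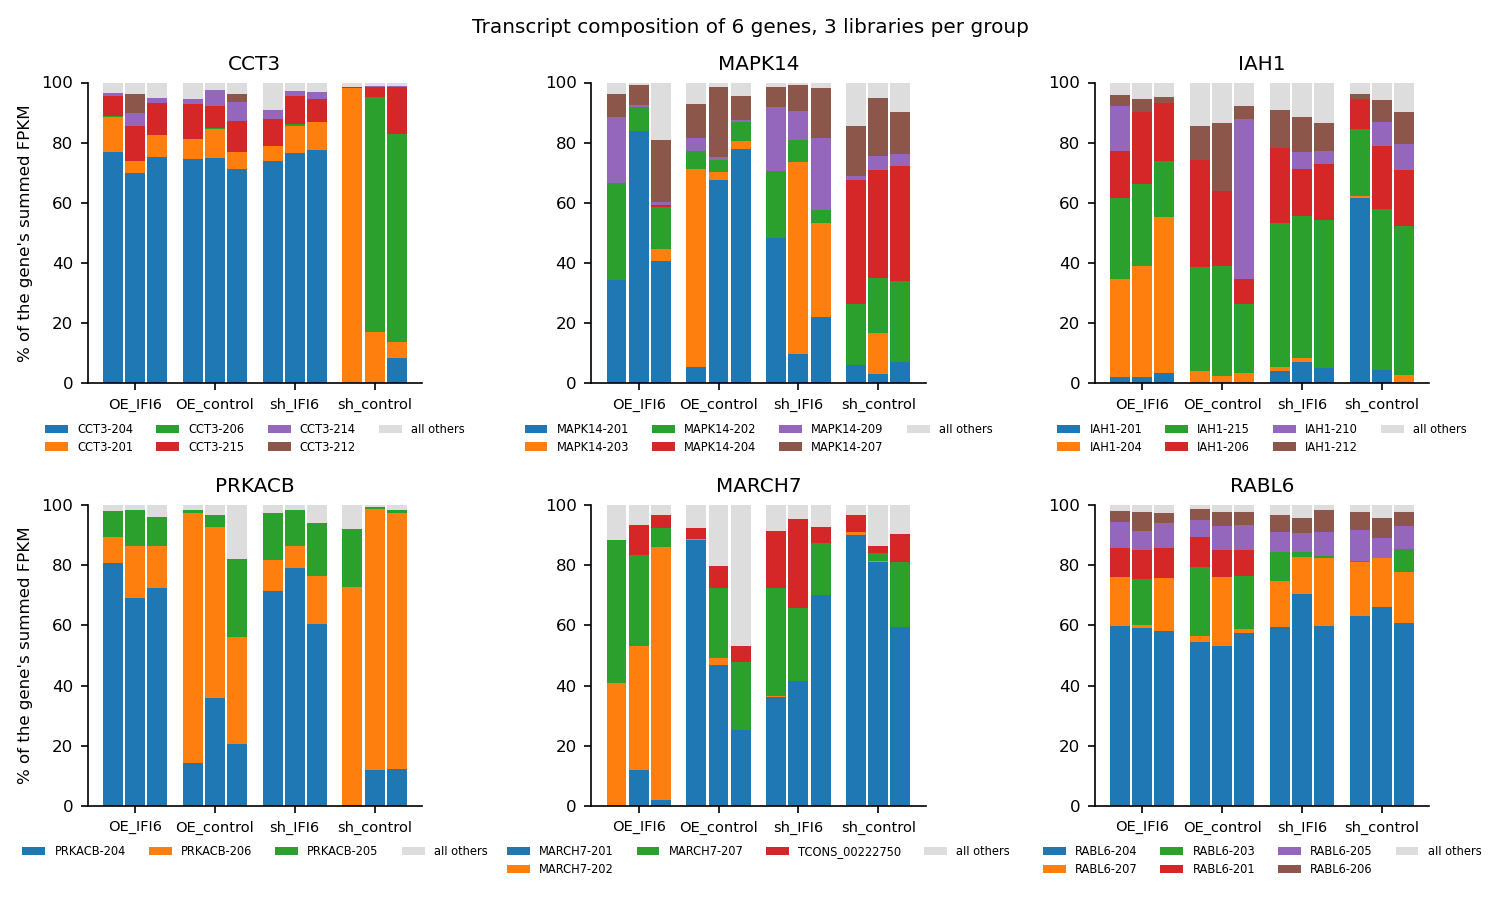
Percentage of each gene's summed FPKM assigned to its most abundant transcripts in the 12 libraries, for CCT3, MAPK14, IAH1, PRKACB, MARCH7 and RABL6; each bar is a library. In CCT3 the sh_control libraries differ from the other 9 and from one another, and in PRKACB the transcript PRKACB-204 takes 69.0% to 80.7% in OE_IFI6 and at most 12.1% in sh_control.

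In the lncRNA table, 3 of 6496 transcripts passed (0.0462%), 2 higher and 1 lower, with 360 at an unadjusted p under 0.05. All 3 are non-coding transcripts of coding genes, and each had a limma adjusted p of 0.031. OXA1L-207 (ENST00000481218, chromosome 14, 22767282 to 22771761) is a retained-intron transcript of OXA1L, which inserts proteins into the inner mitochondrial membrane. It was at 40.9, 16.1 and 51.3 FPKM in OE_IFI6 and 3.99, 2.61 and 1.76 FPKM in sh_control, a log2 difference of 3.19 (SE 0.414). OE_control (4.13 to 4.63 FPKM) and sh_IFI6 (1.29 to 3.19 FPKM) were like sh_control. Another retained-intron transcript, OXA1L-209, was listed at 0 in the 3 OE_IFI6 libraries and at 13.0, 12.7 and 31.5 FPKM in sh_control, but did not pass (limma adjusted p = 0.16). It ranged from 3.72 to 28.3 FPKM in OE_control and sh_IFI6. The coding transcript OXA1L-212 overlapped between groups (17.1, 36.0 and 18.3 FPKM against 30.2, 29.9 and 17.0 FPKM), and the gene had a log2 difference of 0.40 (limma adjusted p = 0.94).

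MBTPS1-204 (ENST00000562886, chromosome 16, 84053774 to 84061631) is a retained-intron transcript of MBTPS1, the site-1 protease that activates SREBP and ATF6. It was at 9.61, 10.1 and 10.2 FPKM in OE_IFI6 and 0.967, 0.664 and 1.01 FPKM in sh_control, a log2 difference of 2.55 (SE 0.316). It was at 1.02 to 2.26 FPKM in OE_control and 0.656 to 3.43 FPKM in sh_IFI6, so OE_IFI6 stood above every other library. The coding transcript MBTPS1-201 was at 31.0, 31.1 and 38.8 FPKM against 33.0, 33.1 and 39.1 FPKM, and these groups overlapped.

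HS6ST1-203 (ENST00000469019, chromosome 2, 128236716 to 128318396), a processed transcript, was listed at 0, 0 and 4.4e-05 FPKM in OE_IFI6 and at 4.67, 6.01 and 2.93 FPKM in sh_control. It fell by 2.43 on the log2(FPKM + 1) scale (SE 0.288). OE_control and sh_IFI6 reached at most 0.521 FPKM, so sh_control again stood alone. The coding transcript HS6ST1-201 was at 6.78, 6.35 and 8.47 FPKM against 5.999, 7.47 and 7.18 FPKM. The HS6ST1 gene, which did not pass, was at 7.28 ± 1.09 FPKM (SD, n = 3) in OE_IFI6 and 12.3 ± 1.32 FPKM in sh_control. The lncRNA-table calls were the least stable. OXA1L-207 missed the threshold in 4 of 6 fits that left out 1 library, MBTPS1-204 in 5 and HS6ST1-203 in 3 (limma adjusted p up to 0.13).

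The transcripts that passed were then set beside OE_control. For IAH1-204, RBMXL1-204, MARCH7-202, MBTPS1-204 and OXA1L-207 the difference between OE_IFI6 and OE_control passed as well. These log2 differences were 2.60, 2.61, 2.37, 2.14 and 2.65, with limma adjusted p between 0.00084 and 0.038. For MAPK14-204, RABL6-201, CCT3-211 and HS6ST1-203 that difference was 0.03, 0.15, 0.34 and -0.40 and did not pass (limma adjusted p between 0.65 and 0.98). For those 4 the control groups differed from each other instead, by -2.94, 2.20, 2.51 and -2.03 on the log2 scale (limma adjusted p between 0.00015 and 0.040). These comparisons share OE_IFI6, OE_control or sh_control libraries and are not independent of one another.

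The most abundant coding transcript was also compared without a test. Of 4179 genes with at least 2 tested coding transcripts, 1730 had the same most abundant transcript in the 3 libraries of OE_IFI6 and likewise in the 3 of sh_control. It differed between the groups for 34 of these (1.97%). The other 5 pairs of groups gave 29 to 52 genes (1.67% to 3.06%), so the share was near that of pairs of groups in general. The 34 include MAPK14, PRKACB, MARCH7, IAH1 and RBMXL1. In MLX, which encodes a MAX-like transcription factor, MLX-209 was at 14.5, 19.5 and 19.2 FPKM in OE_IFI6 and listed at 0 in sh_control. It was listed at 0 in 1 OE_control library too, and at 11.6 and 19.1 FPKM in the other 2. In sh_IFI6 MLX-209 was at 20.3, 8.76 and 19.8 FPKM, so only sh_control lacked it in every library. In PIEZO2, a mechanically gated channel gene, PIEZO2-201 was at 5.29, 5.90 and 4.48 FPKM in OE_IFI6 and listed at 0 in sh_control. The same transcript was at 0.142, 3.93 and 4.59 FPKM in OE_control and at 5.12, 4.87 and 0 FPKM in sh_IFI6. MLX and PIEZO2 were chosen after their values were seen.

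The deposited tables of all annotated genes and transcripts also hold features in none of the tables above. With the same filter, 4 of 14006 genes passed (0.0286%), namely IFI6, its antisense gene, RBMXL1 and the unnamed locus XLOC_169828. Of 28221 transcripts, 15 passed (0.0532%), and 4 of these lie outside the coding and lncRNA tables. MZT2B-209, which missed the threshold in the coding table (limma adjusted p = 0.053), passed here (limma adjusted p = 0.039).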

How the data were processed

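RNA levels were measured by sequencing of lncRNA libraries from total RNA of TE-1 cells, 3 libraries in each of 4 groups taken from the sample titles. FPKM values per gene and per transcript were deposited by the authors. Per the submitters' processing notes, HISAT2, StringTie, Cuffdiff and edgeR were used, with no versions or roles. The sources used here give no genome build, annotation or use of strand. Of 259360 transcript identifiers, 205999 matched GENCODE release 29, and bounds were the same for 93.3% of the matches. Coordinates are those of the deposited tables, and printed sequences those of the GENCODE models. The deposited bounds of IFI6-202, RABL6-201 and CCT3-201 differ from those of the GENCODE models whose sequences are printed. Transcript values add up to the gene value. In 31269 genes with a single transcript, 20.9% to 24.9% of low values were within 1% of a multiple of the smallest step, too few to recover read counts, and no test of counts was made.

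Limma 3.58.1 (R 4.3.3, with version 1.17.8 of data.table) fitted log2(FPKM + 1) with a trended prior variance to the 12 libraries as 4 groups (8 residual degrees of freedom), in each table separately, for features with a mean of at least 1 FPKM. Differences on this scale understate changes of low features. The isoform share was the log2 ratio of a transcript, plus 1 FPKM, to the other coding-table transcripts of its gene, plus 1 FPKM. Tests were two-sided with Benjamini-Hochberg adjustment over each table, and "rose" and "fell" mean adjusted p under 0.05.

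The comparison, the 28 gene lists and the rule for named genes were chosen with earlier results of these data known. IFI6 was named first, then the features of largest change among those that passed without overlap between groups (12 each way for genes and coding transcripts, 6 for lncRNA-table transcripts, 8 for isoform shares), or the 10 of smallest p where fewer than 5 genes passed. The lists described gave up to 2 members of smallest p each, and 14 stress, interferon, cell cycle and small RNA genes were always given. No row matched the listed symbols RPL6, OAS1 and KIF23, which are not analysed here. Some named items are not reported here.

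Alternatives were the filter removed or raised to a mean of 5 FPKM, a pseudocount of 0.1, a filter on the 6 libraries, median-of-ratios and quantile scaling, no trend, a robust prior, only the 6 libraries, a block for the replicate number, a minimum log2 difference of 1 beside the p, the tables of all annotated genes and transcripts, a single fit of both transcript tables, the percentage of the gene's FPKM, and leaving out each library. A share against all annotated transcripts of the gene and a fit without the 3 OE_control libraries were added after the data were seen. The scripts were tested on simulated data.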

Additional observations from a re-analysis of the deposited data

Results flagged for a closer look

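The deposited table of all annotated transcripts holds models that are in neither the coding nor the lncRNA table. With the same filter it gave 28221 tested transcripts, of which 15 passed (0.0532%), and 4 of the 15 are such models. The 3 higher ones are given here because they are signals outside the tables compared. TCONS_00003259, the assembled model antisense to IFI6 (chromosome 1, 27666184 to 27672220), was at 54.3, 42.8 and 56.0 FPKM in OE_IFI6 and 3.33, 2.75 and 3.18 FPKM in sh_control, a log2 difference of 3.66 (limma adjusted p = 7.0e-05). It was at 3.19 to 4.87 FPKM in OE_control and 1.93 to 2.64 FPKM in sh_IFI6. OXNAD1-204 (chromosome 3, 16265233 to 16301786), from a gene for an oxidoreductase-like protein, was at 4.04, 4.02 and 5.05 FPKM in OE_IFI6 and listed at 0 in the 3 sh_control libraries, with a log2(FPKM + 1) difference of 2.42 (limma adjusted p = 0.00014). OE_control was at 3.37 to 4.34 FPKM and sh_IFI6 at 1.68 to 2.20 FPKM, so sh_control alone lacked it. TCONS_00403664, an assembled model of the unnamed locus XLOC_169828 (chromosome 9, 111780048 to 111788006), was at 3.47, 3.06 and 3.70 FPKM in OE_IFI6 and 0.0433, 0 and 0 FPKM in sh_control, with a log2(FPKM + 1) difference of 2.12 (limma adjusted p = 0.0012). It was at 2.79 to 4.04 FPKM in OE_control and at most 0.0345 FPKM in sh_IFI6, and so followed the kind of vector.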

How the results depend on the processing

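IFI6 passed in all 20 other settings (log2 difference 3.57 to 3.78), IFI6-202 in all 19 (3.67 to 3.90) and RBMXL1 in all 19 (1.35 to 1.83). MAPK14-204 and RABL6-201 passed by their own level in all 18 settings, RBMXL1-204 and IAH1-204 in 16 of 18, CCT3-211 in 16 of 19, MARCH7-202 and HS6ST1-203 in 12 of 18, OXA1L-207 in 10 of 19 and MBTPS1-204 in 9 of 18. The 7 isoform shares passed in 6 to 14 settings. None of these changed sign. The counts moved more. With a minimum mean of 5 FPKM, 1 gene, 2 coding transcripts, 1 lncRNA-table transcript and 0 isoform shares passed by limma (145 shares at an unadjusted p under 0.05). With only the 6 libraries, 5 genes, 25 coding transcripts (3 of the 7 among them), 15 lncRNA-table transcripts and 0 shares passed (501 shares unadjusted). In the annotated gene table with all its rows, 4 genes passed, and with no filter 19 coding transcripts. A pseudocount of 0.1 gave 1 lncRNA-table transcript, not among the 3, and 1 share, among the 7, and the percentage of the gene's FPKM gave 11 shares. Without the 3 OE_control libraries, added after seeing the data, 16 coding transcripts, 1 lncRNA-table transcript and 16 shares passed. Leaving out 1 library at a time gave 2 to 5 genes, 11 to 25 coding transcripts, 2 to 10 lncRNA-table transcripts and 2 to 25 shares. Deviations of same-numbered libraries correlated at 0.126, 0.026 and 0.031, and those of differently numbered libraries at -0.116 to 0.085. With so few libraries these values do not settle whether replicate numbers pair them. With the replicate block, IFI6 stayed at 3.67 and 2 genes passed, with 4 coding transcripts, 0 lncRNA-table transcripts (366 unadjusted by limma) and 1 share, which is not among the 7, all of which were lost. Of 2178 fits for 111 named features that did not pass, 18 passed in another setting. The median over all genes lay between -0.06 and 0.01 in every setting. Read depth per library is not known, so no detection limit in reads is given.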

Other observations

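Several further coding transcripts lay close to the threshold. At gene level the log2 difference was 0.33 for MZT2B, -0.83 for RSBN1 and -0.28 for TSPAN9, and none of these genes passed. MZT2B-209, from a gene for a component of the gamma-tubulin ring complex, was at 17.2, 12.3 and 5.24 FPKM in OE_IFI6 and at most 0.825 FPKM in sh_control, OE_control and sh_IFI6 (log2 difference 2.98, limma adjusted p = 0.053). RSBN1-205 was at 0, 0.124 and 0 FPKM in OE_IFI6 and 6.01, 8.76 and 8.58 FPKM in sh_control (limma adjusted p = 0.092), and between 0 and 3.33 FPKM in the other 6 libraries. TSPAN9-206, from a tetraspanin gene, was at 1.97, 3.17 and 3.23 FPKM in OE_IFI6 and 0.548, 0.00302 and 0 FPKM in sh_control, and between 2.85 and 4.76 FPKM in the other 6 libraries (limma adjusted p = 0.092).

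YAP1, the transcriptional coactivator of the Hippo pathway, had low gene values in both overexpression-vector groups and in 1 hairpin library, and did not pass. The gene was at 14.7, 17.6 and 12.3 FPKM in OE_IFI6 and 34.4, 39.4 and 37.4 FPKM in sh_control (log2 difference -1.27, limma adjusted p = 0.94). It was at 16.5, 18.5 and 10.96 FPKM in OE_control and 27.4, 9.15 and 33.1 FPKM in sh_IFI6. YAP1-207 was listed at 0 in the 3 OE_IFI6 and 3 OE_control libraries and was at 20.6, 19.98 and 18.2 FPKM in sh_control and 14.6, 0.0687 and 14.1 FPKM in sh_IFI6 (log2 difference between OE_IFI6 and sh_control -4.36, limma adjusted p = 0.28). YAP1-209 was at 9.79, 11.9 and 3.73 FPKM in OE_IFI6 and 9.76, 12.6 and 4.25 FPKM in OE_control, against at most 2.78 FPKM in the hairpin libraries.

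On chromosome 9, an assembled model of the read-through gene DNAJC25-GNG10 (TCONS_00403636, 111661605 to 111788006), which ends at the same base as TCONS_00403664, was listed at 0 in the 3 OE_IFI6 and the 3 OE_control libraries. It was at 3.93, 2.61 and 2.67 FPKM in sh_control and 2.90 to 3.42 FPKM in sh_IFI6 (log2(FPKM + 1) difference -2.01, limma adjusted p = 0.0020). In the lncRNA table, NEDD8-206 was listed at 0 in both overexpression-vector groups and at 9.44, 29.5 and 13.5 FPKM in sh_control, while NEDD8-205 was at 11.7, 28.4 and 25.2 FPKM in OE_IFI6 and at most 0.721 FPKM in sh_control (limma adjusted p = 0.36 and 0.29). NEDD8-205 was at 7.51 to 10.7 FPKM in OE_control and at 0.678, 13.4 and 0.331 FPKM in sh_IFI6, where NEDD8-206 was at 10.8, 0 and 14.4 FPKM.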
